A study of Mus musculus with 105 samples.

Results

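Newly made miRNAs were compared with the standing miRNA pool in dividing mouse embryonic fibroblasts (DMEF) after 2, 4 and 8 h of labelling. The cells were C57BL/6J embryo-derived fibroblasts at passages 5 to 15, grown in serum and given 5-ethynyluridine (5EU) at 400 µM. 5EU is a uridine analogue that enters RNA as it is made and lets that RNA be pulled down. An EU library holds the small RNA pulled down, and an Input library holds small RNA of total RNA from the culture with the same course number and time. The comparison uses 12 libraries of the 105 samples in the series, in 2 time courses of 3 times, so that 6 pairs of an EU and an Input library were formed. The labels list 15 samples for them, because the EU libraries of course 2 were sequenced again at each time. The deposited table does not say whether its columns for course 2 come from the first sequencing, the second or both added together. Input libraries of these times came from cultures that carried the label, and the labels do not say whether the courses or times came from separate cultures.

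All 1013 mouse miRNA rows were taken, of which 772 had a count in the 12 libraries and 409 passed the expression filter and were tested. Of the other rows, 363 had counts below the filter and 241 had none. EU libraries held 208626 to 498340 miRNA counts and Input libraries 1170266 to 4670252. The level of a miRNA is given as CPM, its count divided by the total miRNA count of the library and scaled to 1000000, which is a share and not an amount. The difference is the log2 ratio of the EU share to the Input share, so 1 is a 2-fold higher share among labelled RNA and 0 is the same share in both. A higher share among labelled miRNAs can stand beside any absolute rate of synthesis, since the shares of a library sum to a fixed total. The EU library of course 1 without labelling (0 h) held 2262 miRNA counts. Scaled by the added RNA standards dme-miR-14 and xtr-miR-427, these came to 1.85% of the miRNA yield at 2 h and 0.746% at 8 h, and scaled by the standards spike_22 to spike_26 to 6.10% and 1.702%. In the mRNA libraries of DMEF, the summed level of 8 fibroblast genes was 29921 and 28487 CPM in the replicates, 4 muscle genes were each under 1 CPM, 4 hematopoietic genes summed to 2.10 and 2.61 CPM, and 4 genes of a neural list summed to 546 and 487 CPM, nearly all from Map2 and Nes.

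A miRNA is cut from a hairpin transcript by Drosha and then by Dicer, which leaves a duplex of 2 arms named 5p and 3p. Argonaute keeps 1 arm, the guide, and releases the other, the passenger, which is usually degraded. A guide in Argonaute is known to last far longer than most messenger RNAs, so that its standing pool was mostly made before a short label, while a passenger is made at the same rate and soon lost. In fibroblasts, miR-21a, miR-125b, miR-29, miR-143, miR-145 and let-7 are among the abundant guides.

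The mature sequences below are those the results turn on, from RefSeq on GRCm38.p6, the build the submitters' notes also name. They are shown because arms of a single hairpin, or miRNAs of like abundance, differed widely between labelled and standing RNA. Capitals mark the seed, bases 2 to 8 from the 5′ end, which pairs with target mRNAs. The first set holds passenger arms with a high EU share, each above the guide arm of the same hairpin.
miR-26a-2-3p: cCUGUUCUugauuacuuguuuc
miR-26a-5p: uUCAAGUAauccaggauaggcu
miR-27a-5p: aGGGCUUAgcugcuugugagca
miR-27a-3p: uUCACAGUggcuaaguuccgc
miR-130a-5p: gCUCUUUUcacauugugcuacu
miR-130a-3p: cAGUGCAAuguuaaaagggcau
miR-29b-1-5p: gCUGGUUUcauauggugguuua
miR-29b-3p: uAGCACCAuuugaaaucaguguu
The second set holds miRNAs with a low EU share, and let-7d-5p as the other arm of let-7d-3p.
miR-214-3p: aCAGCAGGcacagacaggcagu
miR-1247-5p: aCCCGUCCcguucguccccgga
miR-3102-3p: gAGCACCCcauuggcuacccaca
miR-574-3p: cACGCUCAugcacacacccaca
let-7d-3p: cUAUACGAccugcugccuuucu
let-7d-5p: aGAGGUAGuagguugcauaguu
The third set holds abundant guides and miR-7a-5p, a guide with a high EU share, and the passenger of miR-21a.
miR-7a-5p: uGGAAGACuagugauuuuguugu
miR-21a-5p: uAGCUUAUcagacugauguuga
miR-21a-3p: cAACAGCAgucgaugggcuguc
miR-125b-5p: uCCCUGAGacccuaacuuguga
miR-29a-3p: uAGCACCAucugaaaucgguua
The hairpin of miR-26a-2 lies at chr10:126995530-126995613 on the plus strand, within the span of Ctdsp2, a gene for a small phosphatase. That of miR-27a lies at chr8:84208672-84208758 on the plus strand and within no other listed gene. The hairpin of miR-214 lies at chr1:162223368-162223477 on the plus strand, within Dnm3os, a noncoding gene opposite to Dnm3. That of miR-574 lies at chr5:64970318-64970395 on the plus strand, within the spans of Fam114a1 and Tlr6. The hairpin of miR-21a lies at chr11:86584067-86584158 on the minus strand, within the span of Vmp1. The gene table gives spans only, so exons and introns were not told apart.

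Labelled and standing miRNAs differed widely. Of 409 miRNAs tested, 137 had a higher share in EU than in Input (33.5%) and 124 a lower one (30.3%), by edgeR's quasi-likelihood test with the pair as a block and a Benjamini-Hochberg adjusted p under 0.05, together 63.8%. Among miRNAs with a mean of at least 100 CPM, the 10 highest were passenger arms of common fibroblast hairpins, at 9.11 to 14.7 times their Input share, and the lowest included miR-214-3p, whose Input share was 25.3 times its EU share. The 10 most abundant miRNAs of Input lay between -1.18, for miR-125b-5p, and 0.36, for miR-199ab-3p, on the log2 scale. TMM scaling moved the median over all tested from 0.06 to -0.10 and gave 128 higher and 146 lower, DESeq2 gave 129 and 142, and no called miRNA changed sign. The sign was the same in all 6 pairs for 128 of the 137 and 113 of the 124. Every EU library lay above every Input library for 80 miRNAs (19.6% of those tested) and below for 84 (20.5%). Tested against a 2-fold difference (glmTreat), 67 were higher (16.4%) and 49 lower (12%). The mean differences of the courses had a Pearson correlation of 0.91 over the 409 miRNAs, which share the libraries of each course.

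**Figure D1:**
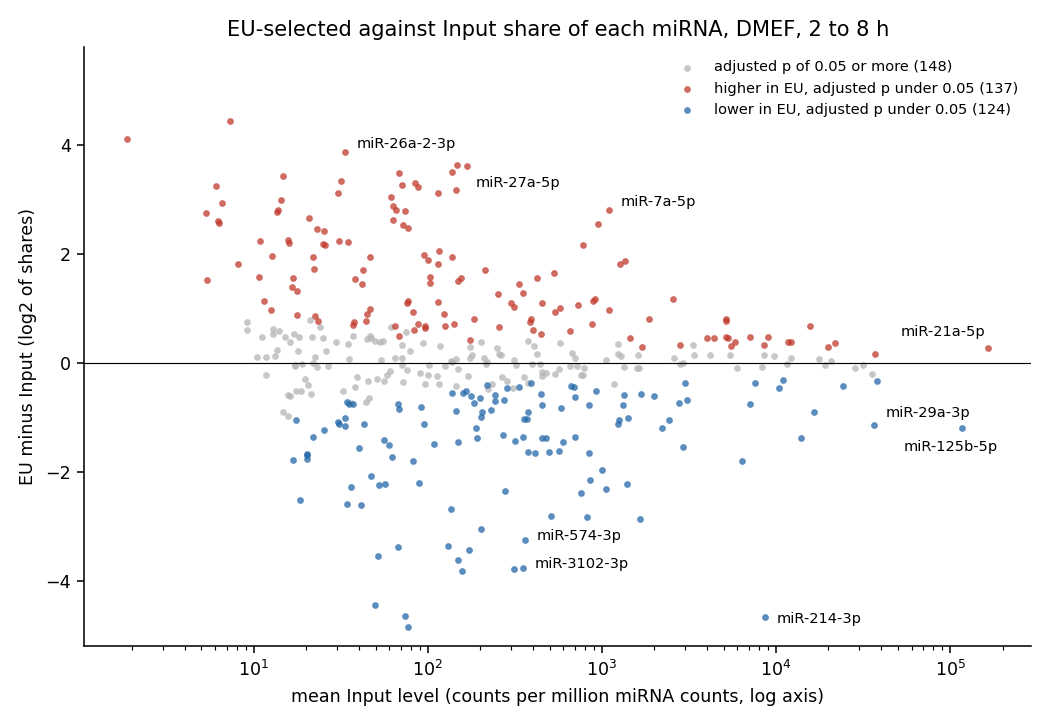
Each point is 1 of the 409 tested miRNAs in DMEF, with its mean Input level on a log axis in CPM and its fitted EU-minus-Input difference (log2 of shares) on the vertical axis. Red and blue mark the 137 higher and 124 lower at an adjusted p under 0.05, and miR-21a-5p, at the far right, lies near 0 while miR-214-3p lies at -4.66.

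The 10 miRNAs with the highest EU share among those with a mean of at least 100 CPM were each rarer in Input than the other arm of their hairpin. miR-26a-2-3p, the passenger of the miR-26a-2 hairpin, was at 944, 508 and 279 CPM in the EU libraries of course 1 at 2, 4 and 8 h and at 1061, 355 and 197 CPM in those of course 2. Its Input levels were 31.3, 25.8 and 18.4 CPM in course 1 and 49.6, 43.0 and 32.6 CPM in course 2. Every EU library was above every Input library, and the EU level was lower at each later time in both courses. The fitted log2 difference was 3.88 (SE 0.30, edgeR adjusted p = 1.38e-06). The guide of the same hairpin, miR-26a-5p, which also comes from the miR-26a-1 hairpin, differed by 0.38 (SE 0.07, edgeR adjusted p = 0.000665).

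miR-27a-5p, the passenger of miR-27a, was at 3592, 1836 and 921 CPM in EU of course 1 at 2, 4 and 8 h and at 3099, 1287 and 602 CPM in EU of course 2. In Input it lay between 106 and 168.3 CPM in all 6 libraries. The labelled share thus fell toward the standing one over the 3 times while Input stayed within a narrow range. The log2 difference was 3.52 (SE 0.28, edgeR adjusted p = 1.38e-06). Its guide, miR-27a-3p, a regulator of fat cell differentiation, was at 22300 to 33462 CPM in EU and 22155 to 34715 CPM in Input, ranges that overlap. Both arms hold 6 uridines.

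miR-130a-5p was at 2751, 2042 and 870 CPM in EU of course 1 and at 4017, 2237 and 1049 CPM in EU of course 2, against 80.2 to 255 CPM in Input. Its log2 difference of 3.63 (SE 0.33, edgeR adjusted p = 4.80e-06) stood beside -0.46 (SE 0.10, edgeR adjusted p = 0.00136) for its guide miR-130a-3p. miR-29b-1-5p, the passenger of a hairpin whose guide represses collagens, was at 576 to 4601 CPM in EU and 79.0 to 218 CPM in Input. It differed by 3.63 (SE 0.28, edgeR adjusted p = 1.25e-06), and its guide miR-29b-3p by -0.89 (SE 0.10, edgeR adjusted p = 1.45e-05). The arms of the miR-130a hairpin had fitted differences of opposite sign. The call of miR-130a-3p was lost in the 2 h and 8 h pairs alone (edgeR adjusted p = 0.110 and 0.264). With counts summed over the 3 times of each course it was also lost, at -0.43 (edgeR adjusted p = 0.0636). miR-29b-3p also comes from the miR-29b-2 hairpin and is no value of miR-29b-1 alone.

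The other 6 had log2 differences of 3.49 for miR-92a-1-5p, 3.35 for miR-26b-3p, 3.30 for miR-186-3p, 3.27 for miR-19b-1-5p, 3.24 for miR-16-1-3p and 3.19 for miR-27b-5p. Each was higher in 6 of 6 pairs, and each had every EU library above every Input library. Their other arms, tested in the same fit, differed by -0.36 for miR-92a-3p, 0.39 for miR-26b-5p, 0.80 for miR-186-5p, -0.31 for miR-19b-3p, -0.43 for miR-16-5p and 0.04 for miR-27b-3p. Of these, miR-27b-3p did not pass the test, and miR-92a-3p, miR-19b-3p, miR-16-5p and miR-26b-5p lost the call with counts summed per course. miR-92a-3p comes from 2 hairpins and is no value of miR-92a-1 alone. The names miR-19b-3p and miR-16-5p lack the copy number of miR-19b-1-5p and miR-16-1-3p, so they can cover more than 1 hairpin.

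Among miRNAs with a mean of at least 100 CPM, miR-214-3p, made from the Dnm3os transcript of mesenchymal cells, had the lowest EU share. It was at 315, 302 and 223 CPM in EU of course 1 at 2, 4 and 8 h and at 613, 668 and 153 CPM in EU of course 2. In Input it was at 9905, 10227 and 10348 CPM in course 1 and at 7877, 6545 and 6999 CPM in course 2. All EU libraries lay far below all Input libraries, and the log2 difference was -4.66 (SE 0.32, edgeR adjusted p = 1.25e-06). The other arm, miR-214-5p, was higher in EU, at 1232 to 3077 CPM against 839 to 1035 CPM in Input, with a log2 difference of 1.18 (SE 0.17, edgeR adjusted p = 6.73e-05). miR-214-3p holds 1 uridine and miR-214-5p holds 8. The 0 h counts of miR-214-3p, 15 in all, came to 29.0% of its labelled yield against dme-miR-14 and xtr-miR-427 and to 71.6% against the other standards, spike_22 to spike_26.

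miR-1247-5p was at 4.70, 9.59 and 5.94 CPM in EU of course 1 and at 38.9, 63.7 and 22.1 CPM in EU of course 2, against 265 to 353 CPM in Input. The courses differed several-fold in EU, and both lay below Input, with a log2 difference of -3.78 (SE 0.38, edgeR adjusted p = 5.89e-06). miR-3102-3p, from a short intron of Arhgef17 that is spliced and debranched without Drosha (a mirtron), was at 9.59 to 50.02 CPM in EU and 324 to 373 CPM in Input. It differed by -3.76 (SE 0.26, edgeR adjusted p = 9.12e-07). miR-574-3p was at 23.5 to 63.7 CPM in EU and 327 to 399 CPM in Input and differed by -3.25 (SE 0.24, edgeR adjusted p = 1.25e-06). For these 3 miRNAs no EU library reached the lowest Input library.

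let-7d-3p, a minor arm, was lower in EU than its guide, as in 29 hairpins in all. It was at 103, 197 and 196 CPM in EU of course 1 and at 266, 405 and 273 CPM in EU of course 2, against 1412 to 1958 CPM in Input. With a log2 difference of -2.85 (SE 0.18, edgeR adjusted p = 6.33e-07) it stood below its guide let-7d-5p, whose difference was -0.01 (SE 0.08, edgeR adjusted p = 0.932). let-7d-3p holds 8 uridines, more than the guide's 7. The remaining low miRNAs by the same rule were miR-466i-3p at -3.05, miR-129-3p at -2.82, miR-193b-3p at -2.80, miR-532-3p at -2.39 and miR-149-5p at -2.35, each lower in 6 of 6 pairs. The 0 h background of miR-129-3p came to 58.0% and that of miR-193b-3p to 38.3% of the labelled yield against the same standards, on 4 and 2 counts, and to 147% and 92.6% against spike_22 to spike_26.

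**Figure D2:**
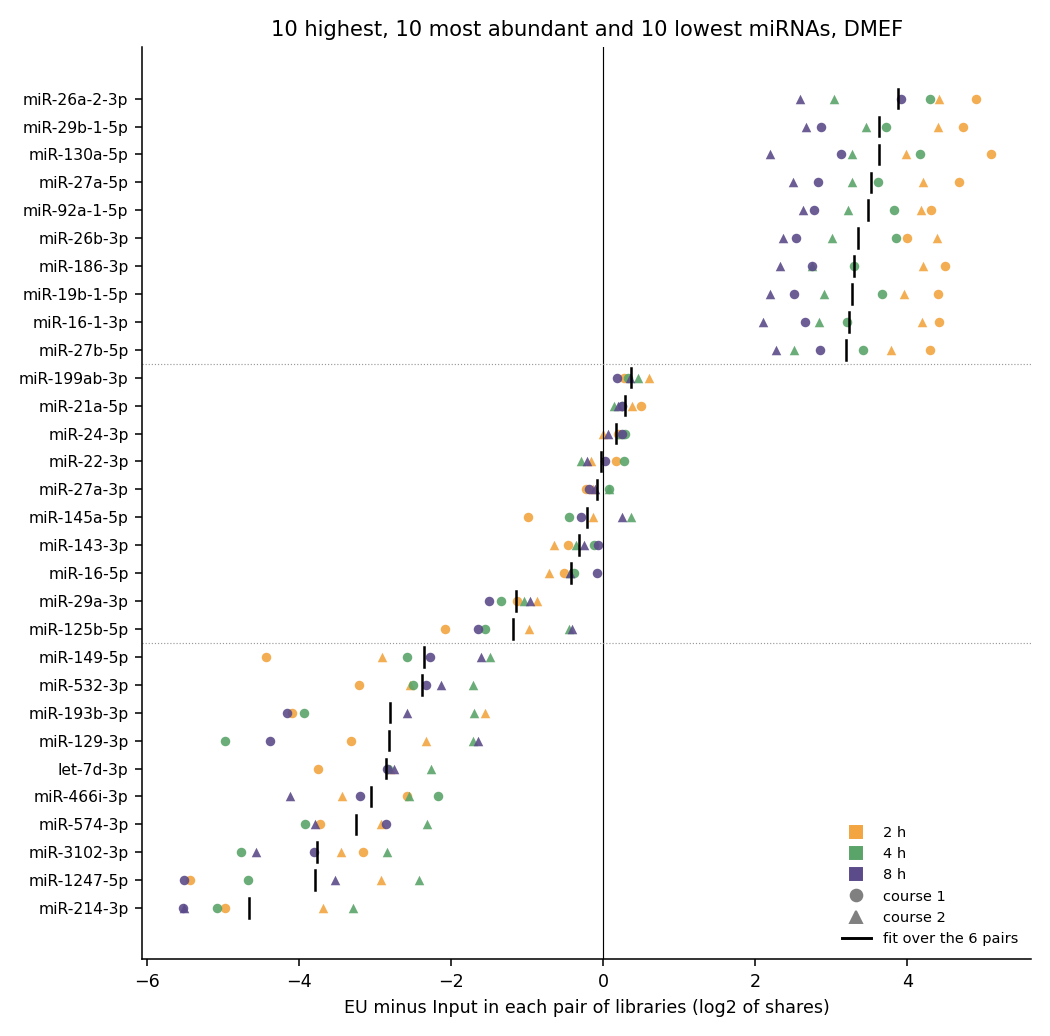
The horizontal axis gives the EU-minus-Input difference (log2 of shares) of each pair of libraries for the 10 highest, the 10 most abundant in Input and the 10 lowest miRNAs in DMEF. Colours mark 2, 4 and 8 h, circles and triangles mark courses 1 and 2, and bars mark the fit. The 10 highest lie above 2 in every pair with 2 h to the right of 8 h, and the 10 lowest lie below -1.

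The 10 most abundant Input miRNAs had smaller differences. miR-21a-5p, the most abundant, was at 234155, 197372 and 187219 CPM in EU of course 1 and at 220498, 185059 and 185957 CPM in EU of course 2. Its Input levels were between 158362 and 169080 CPM, below every EU library. The log2 difference of 0.28 (SE 0.06, edgeR adjusted p = 0.00123) was no longer past the threshold under TMM scaling or in DESeq2. With counts summed per course, the edgeR adjusted p of miR-21a-5p was 0.0555. miR-24-3p differed by 0.17 and miR-199ab-3p, a row that joins near-identical arms, by 0.36, and both also lost the call under TMM scaling and in DESeq2. miR-22-3p, miR-27a-3p and miR-145a-5p, at -0.03, -0.08 and -0.21, did not pass the test, but miR-27a-3p was called lower under TMM scaling (-0.23) and in DESeq2 (-0.21), and miR-22-3p under TMM scaling (-0.18).

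Among the abundant guides, miR-125b-5p and miR-29a-3p had the lowest EU shares. miR-125b-5p, the vertebrate relative of lin-4, was at 29355, 40398 and 43538 CPM in EU of course 1 and at 53543, 84454 and 80780 CPM in EU of course 2. Input held 104959 to 136465 CPM of it, above all EU libraries, and the log2 difference was -1.18 (SE 0.21, edgeR adjusted p = 0.000469). miR-29a-3p, a repressor of collagens, was at 11685 to 21979 CPM in EU and 32630 to 40093 CPM in Input. Its log2 difference was -1.14 (SE 0.09, edgeR adjusted p = 1.28e-06), and every EU library lay below every Input library. miR-143-3p, a smooth muscle and fibroblast miRNA, differed by -0.32 and miR-16-5p, which restrains cell cycle genes, by -0.43, both past the test. Without course 2, miR-143-3p lost the call (edgeR adjusted p = 0.128). Both lost it in the 8 h pairs alone (edgeR adjusted p = 0.475 and 0.257) and with counts summed per course (0.116 and 0.0594).

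A few guides stood high in EU. miR-7a-5p, a miRNA known for its decay on the long noncoding RNA Cyrano, was at 10316, 7856 and 7559 CPM in EU of course 1 and at 7774, 6089 and 6550 CPM in EU of course 2. Its Input levels were 819, 877 and 1003 CPM in course 1 and 1167, 1287 and 1448 CPM in course 2. Every EU library held over 4 times the share of any Input library, with a log2 difference of 2.81 (SE 0.19, edgeR adjusted p = 8.69e-07). miR-196b-5p, from a Hox cluster, was at 4208 to 7214 CPM in EU and 2249 to 2991 CPM in Input, with a log2 difference of 1.17 (SE 0.10, edgeR adjusted p = 2.41e-06).

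Among hairpins with both arms tested, the rarer arm was usually the one with the higher EU share. The arms were ranked by Input counts at the other times, which the test did not use, and 122 hairpins had both arms tested. Arms were matched by name, and a name can cover more than 1 hairpin. let-7a-5p, for example, was matched to let-7a-2-3p, which is named for 1 copy, so the part of a minor arm is not always that of a single hairpin. In 93 of them the minor arm had the higher difference and in 29 the lower, and 85 of the 93 held in both courses. The median of minor minus major was 1.15 on the log2 scale. Of the minor arms, 60 were higher in EU and 18 lower, and of the major arms 29 were higher and 48 lower, beside 33.5% and 30.3% of all those tested. Among the 77 hairpins whose minor arm made up under 10% of the hairpin, the median of minor minus major was 1.65, and among the other 45 it was 0.57. The expression filter could be passed through EU alone, so a minor arm rare in Input was tested only where its EU level was high. Such arms were miR-206-5p, at 0 to 3.10 CPM in Input and 14.4 to 114 CPM in EU, and miR-155-3p, at 1.98 to 10.3 and 23.8 to 130 CPM. Their number was not counted, so these counts and medians may lean toward the minor arm.

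**Figure D3:**
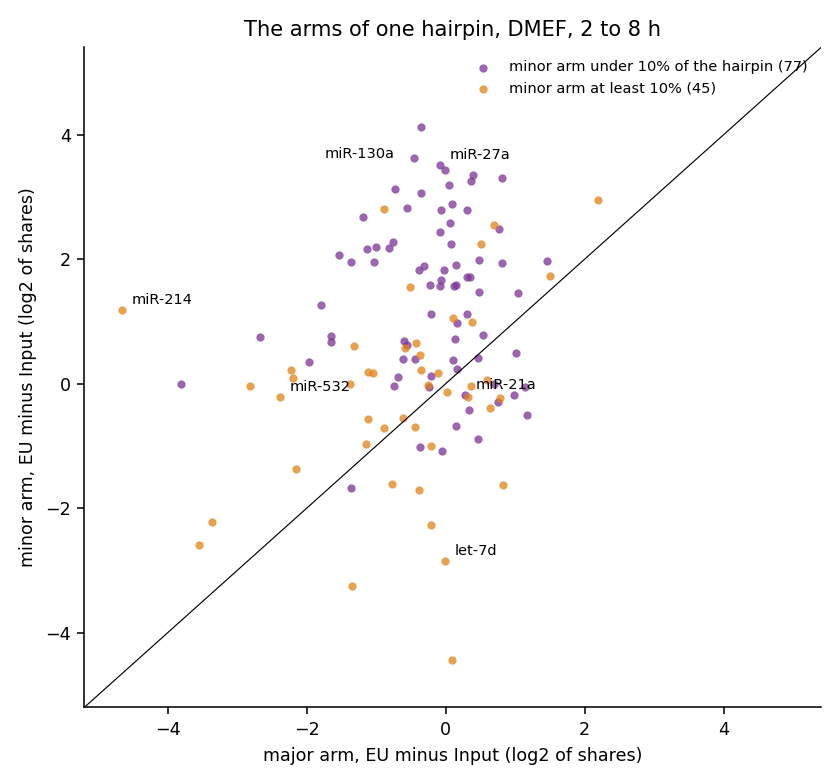
Each of the 122 points is a hairpin with its arms matched by name. The EU-minus-Input difference (log2 of shares) of its major arm is on the horizontal and of its minor arm on the vertical axis. Points above the diagonal, 93 of 122, have the higher difference in the minor arm, and let-7d and miR-21a lie below it.

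miR-125b-1-3p and miR-22-5p show how large such labelled passenger pools were. miR-125b-1-3p was at 10818, 5718 and 2964 CPM in EU of course 1 and at 9701, 5125 and 3018 CPM in EU of course 2, against 811 to 1175 CPM in Input. Its log2 difference was 2.55 (SE 0.20, edgeR adjusted p = 1.38e-06), while that of its guide miR-125b-5p was -1.18. miR-22-5p was at 2896 to 8226 CPM in EU and 1181 to 1388 CPM in Input, with a log2 difference of 1.83 (SE 0.20, edgeR adjusted p = 1.00e-05). In both cases the lowest EU level was at 8 h and still above the Input range.

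The number of uridines, where 5EU can enter, moved with the difference. A mature sequence was matched for 323 of the 409 miRNAs, by name. The median log2 difference was -1.65 for the 25 miRNAs with at most 3 uridines, -0.31 for 87 with 4 to 5, 0.05 for 106 with 6 to 7, 0.47 for 78 with 8 to 9 and 1.54 for 27 with 10 to 12. Of the first class 19 were lower and 3 higher in EU, and of the last 20 were higher and 1 lower. Of all 323, 121 were higher and 90 lower. Over these 323 miRNAs, which share the libraries, the Pearson correlation of the uridine count with the difference was 0.47 and with that at 72 h it was 0.61. The part of uridine number in any single difference was not tested. The minor arm had the higher difference in 46 of 49 hairpins where it held more uridines and in 28 of 46 where it held fewer. Among miRNAs with 6 to 7 uridines, the median was 0.91 for 30 minor arms and -0.10 for 40 major arms.

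**Figure D4:**
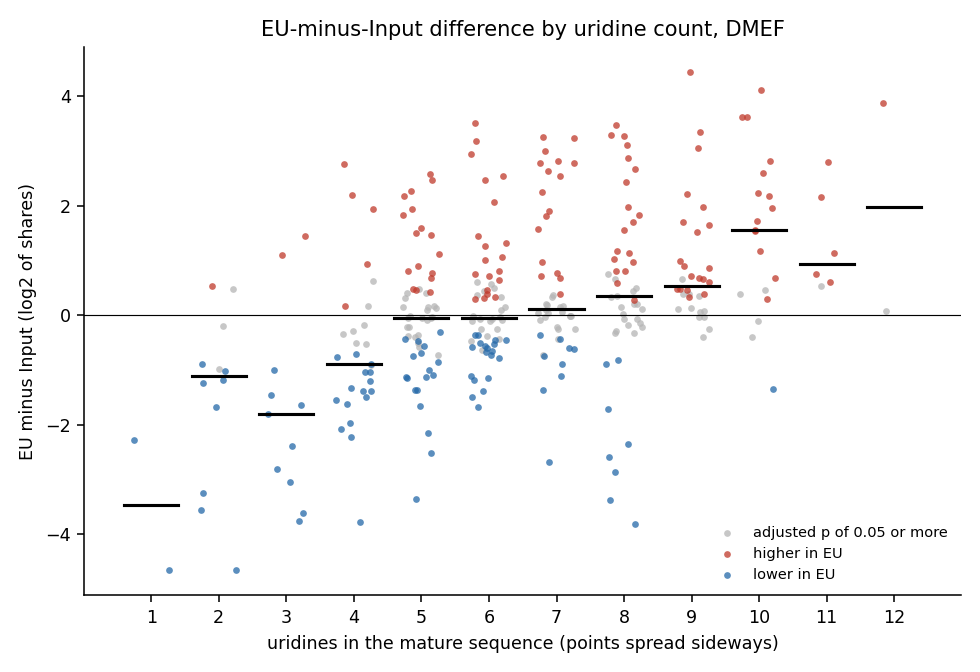
Each point is 1 of the 323 tested miRNAs with a matched sequence, by its number of uridines (points spread sideways) and its EU-minus-Input difference (log2 of shares) in DMEF. Black bars are the medians of each number, which lie below 0 for few uridines and above 0 for many, and red and blue mark miRNAs higher and lower in EU.

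The differences were narrower at the later times than at 1 and 2 h. The standard deviation of the difference over the 409 miRNAs was 1.93 at 2 h, 1.697 at 4 h and 1.53 at 8 h in course 1 and 1.76, 1.39 and 1.39 in course 2. It was 2.23 and 2.20 at 1 h, 1.35 and 1.03 at 24 h and 1.29 and 1.16 at 72 h, so in course 2 it did not fall from 4 to 8 h or from 24 to 72 h. For single miRNAs the difference was fitted against the log2 of time. It fell from 2 to 8 h for 27 of 409 miRNAs (6.6%) and rose for 0 in edgeR, with 11 rising and 56 falling at an unadjusted p under 0.05 and 1 rising in DESeq2. Without course 2 it fell for 46 and rose for 13, and without course 1 it fell for 37 and rose for 1. Of the 27, 24 were higher in EU over the 3 times and 19 were minor arms, and the other 8 had no arm role assigned. Among all 409 tested, 137 were higher in EU and 122 were minor arms.

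The 5 steepest among those with a mean of at least 100 CPM were let-7f-2-3p, miR-21a-3p, miR-301a-5p, miR-16-1-3p and miR-130a-5p. Per doubling of time their differences changed by -1.21, -1.10, -0.98, -0.96 and -0.93. miR-21a-3p, the passenger of the most abundant guide, was at 822, 316 and 140 CPM in EU of course 1 and at 1337, 359 and 255 CPM in EU of course 2. Its Input levels were 422, 388 and 338 CPM in course 1 and 676, 473 and 572 CPM in course 2. The EU share was above Input at 2 h and below it at 4 and 8 h in both courses, so that the mean difference of -0.18 (edgeR adjusted p = 0.640) hides a change of sign. Its slope had an SE of 0.16 and an edgeR adjusted p of 0.00225.

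Later times show which differences remained. In a fit chosen after these data were seen, the difference at 2 to 8 h was compared with that at 24 and 72 h over 20 DMEF libraries. It was higher early than late for 57 of 396 miRNAs (14.4%) and lower for 13 (3.28%), by edgeR at an adjusted p under 0.05. Without course 1 these counts were 14 and 4. Of the miRNAs higher in EU at 2 to 8 h, 129 could be tested and 55 were higher early than late, and of those lower in EU, 121 could be tested and 11 were lower early than late. These groups were called on the same 2 to 8 h libraries that form the early side of the fit. That choice favours early values further from 0, so no conclusion is drawn from this split. Among minor arms 35 were higher early than late and 2 lower, and among major arms 4 were higher and 7 lower. The arms were ranked in part by the Input libraries at 24 and 72 h, which this fit also uses.

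miR-27a-5p had differences of 4.67, 3.62 and 2.83 at 2, 4 and 8 h in course 1 and 1.68 and 1.34 at 24 and 72 h. Course 2 gave 4.20, 3.27, 2.50, 1.47 and 0.78 at the same times. Each later pair was lower, and the change from late to early was 2.20 (SE 0.38, edgeR adjusted p = 0.00216). miR-214-3p had -4.97, -5.07 and -5.53 in course 1 and then -5.44 and -6.51, and course 2 gave -3.68, -3.29 and -5.51 and then -2.63 and -4.88. Its change from late to early was 0.16 (SE 0.77, edgeR adjusted p = 0.917), which did not pass the test. miR-29a-3p was between -1.02 and -0.85 at 24 and 72 h, and miR-21a-5p between 0.12 and 0.19.

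**Figure D5:**
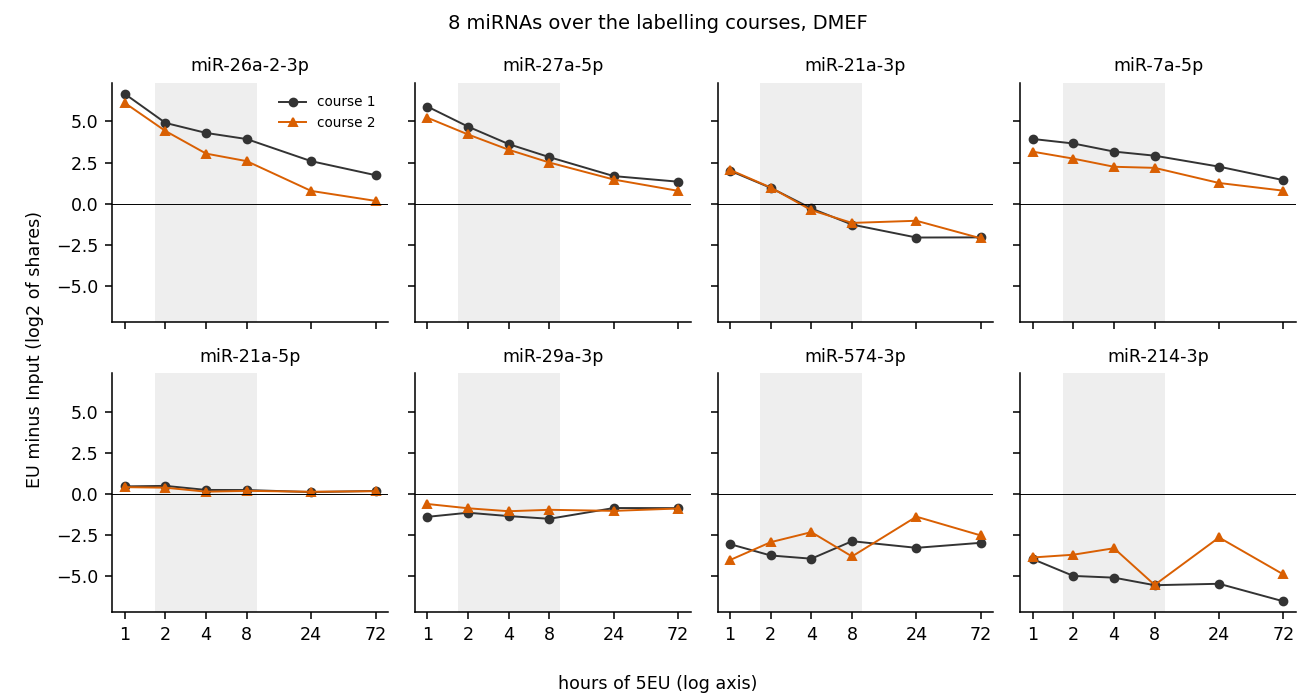
Each panel gives a miRNA's EU-minus-Input difference (log2 of shares) at 1 to 72 h of 5EU on a log time axis, with course 1 in black and course 2 in orange, and grey marks 2 to 8 h. miR-26a-2-3p, miR-27a-5p and miR-7a-5p come down toward 0, miR-21a-3p crosses 0 between 2 and 4 h, miR-21a-5p stays near 0 and miR-574-3p and miR-214-3p stay below -1 throughout.

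By family, passengers and guides of the same list often lay apart. In the miR-26 family 5 of 5 were higher in EU, with the 3p arms miR-26a-1-3p at 4.44, miR-26a-2-3p at 3.88 and miR-26b-3p at 3.35 and the guides at 0.38 and 0.39. With counts summed per course, the guides miR-26a-5p and miR-26b-5p lost the call (edgeR adjusted p = 0.0614 and 0.0668). Of the 3p arms, miR-26a-1-3p was at only 3.88 to 9.62 CPM in Input and passed the expression filter through EU. In the miR-30 family 8 of 11 were higher and 1 lower, from miR-30b-3p at 3.43 to the guide miR-30d-5p at -0.74. In the miR-23/24/27 clusters 7 of 11 were higher and 0 lower, although under TMM scaling and in DESeq2 it was 6 higher and 1 lower. Of their 6 tested 5p arms, the passengers, 5 had a higher value than the 3p partner, and miR-24-2-5p, at 0.16, lay beside the 0.17 of miR-24-3p.

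The let-7 family, which holds back growth in differentiated cells, had 10 of 17 higher and 1 lower. Its 9 tested miRNAs with the let-7 seed GAGGUAG, all guides, had a median of 0.15, with 4 higher and 0 lower. The highest of the family was the passenger let-7f-1-3p at 3.12. In the miR-29 family, the 3 guides with the seed AGCACCA had a median of -0.89, with 2 lower and 0 higher, and the passengers miR-29a-5p and miR-29b-1-5p were at 2.16 and 3.63, while miR-29c-5p, at 0.12, did not pass the test. The 3 guides with the miR-99/100 seed ACCCGUA were all lower, with miR-99b-5p at -1.80, miR-100-5p at -0.68 and a median of -0.68.

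In the growth-linked miR-17-92 cluster and its paralogs 9 of 18 were higher and 3 lower, from miR-92a-1-5p at 3.49 to miR-106b-3p at -0.67. The 3 lower, miR-106b-3p, miR-92a-3p and miR-19b-3p, lost the call with counts summed per course (edgeR adjusted p = 0.0799, 0.150 and 0.170). The cluster of miR-322, miR-503, miR-351 and miR-450, known for promoting exit from the cell cycle, had 7 of 11 higher and 0 lower, with miR-450b-5p at 2.24 and miR-503-5p at 1.45. miR-503-5p holds 3 uridines, so it stood among the 3 of 25 miRNAs of the lowest uridine class that were higher. Mirtrons and other miRNAs made without Drosha had 5 of 5 lower, with a median of -2.60 beside 0.06 over all tested, from miR-320-3p at -0.58 to miR-3102-3p at -3.76. With counts summed per course, miR-320-3p lost the call (edgeR adjusted p = 0.120). In the imprinted Dlk1-Dio3 cluster 10 of 60 were higher and 19 lower, with miR-154-3p highest at 2.54 and miR-667-3p lowest, on 5 EU counts against 887 in Input, too few to give a size. It was 9 higher and 27 lower under TMM scaling or in DESeq2. All of these counts stand beside 33.5% higher and 30.3% lower among all miRNAs tested.

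Lists of other cell types differed in level. No miRNA of the stem cell miR-290 and miR-302 cluster list, the epithelial miR-200 family or the hematopoietic list was tested, and their summed levels in EU were at most 4.55, 4.55 and 26.1 CPM. The hematopoietic list reached 262 CPM in an Input library. The neural list had 6 tested, 2 higher and 1 lower, with miR-9-5p at 0.75 and miR-129-3p at -2.82, and summed to 995 to 2274 CPM in EU and 1432 to 2411 CPM in Input. The muscle list had 4 tested, 1 higher and 2 lower, and summed to 292 to 529 CPM in EU and 374 to 570.2 CPM in Input. miR-206-3p, at -0.36, and miR-1a-3p, at -0.75, were lower. For miR-1a-3p the ranges overlapped, at 4.79 to 44.1 CPM in EU and 11.4 to 68.3 CPM in Input. It lost the call with no replicate block, without course 1 and with counts summed per course (edgeR adjusted p = 0.424, 0.105 and 0.131). The other arm of miR-206, miR-206-5p, was higher, but at 0 to 3.10 CPM in Input it passed the expression filter through EU only, too few to give a size. The counts of the neural and muscle lists stand beside 33.5% higher and 30.3% lower among all miRNAs tested. miR-122-5p, a liver miRNA, was at 0 CPM in the EU libraries of course 1 and 2.01 to 9.09 CPM in course 2, against 17.8 to 144 CPM in Input. The part of other cell types in these levels was not tested.

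The same difference was measured in contact-inhibited fibroblasts (CIMEF), of the same strain, passages and dose but held at confluence for 5 days, and in embryonic stem cells (ESC, line v6.5, C57BL/6, 125 µM 5EU). Over 36 libraries and 564 miRNAs, the difference was higher in DMEF than in CIMEF for 30 (5.32%) and lower for 62 (11%), by edgeR's test of the interaction, together 16.3%. Under TMM scaling these were 41 and 35, and in DESeq2 41 and 40. Without the block they were 8 and 11, and without course 1 of each line 23 and 14. Of the 62, 53 were tested within DMEF, where 37 were higher in EU than in Input, 10 lower and 6 not called, beside 33.5% higher and 30.3% lower of all tested there. Without labelling (0 h), the CIMEF EU library of course 1 held 21334 miRNA counts beside 238972 of dme-miR-14 and xtr-miR-427, and at 2 h 131291 beside 355542. In DMEF these were 2262 beside 89571 and 212979 beside 155617. Background was thus a larger part of the 2 h yield in CIMEF, and its part in these differences was not tested.

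miR-26a-2-3p had a mean difference of 3.86 ± 0.88 (SD, n = 6 pairs) in DMEF and 6.87 ± 1.18 (SD, n = 6 pairs) in CIMEF. The fitted DMEF-minus-CIMEF value was -2.99 (SE 0.50, edgeR adjusted p = 0.00027). miR-7a-5p was at 7691 CPM in EU and 1100 CPM in Input of DMEF and at 2374 and 95.3 CPM in CIMEF, and its DMEF-minus-CIMEF value was -1.87 (edgeR adjusted p = 7.12e-06). In the other direction miR-130b-5p, miR-574-5p and miR-130b-3p were higher in DMEF by 1.91, 1.85 and 1.56. miR-130b-5p and miR-130b-3p lost the call without course 2 (edgeR adjusted p = 0.103 and 0.0508) and with no replicate block (0.132 and 0.427). The mean differences for miR-130b-3p were -1.31 ± 0.24 (SD, n = 6 pairs) in DMEF and -3.21 ± 1.42 (SD, n = 6 pairs) in CIMEF. miR-21a-5p was higher in DMEF by 0.89 (edgeR adjusted p = 8.86e-06).

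Against ESC, whose EU libraries held only 11392 to 105158 counts and another dose, 40 of 564 were higher in DMEF (7.09%) and 22 lower (3.9%) by edgeR. These counts turned with the scaling, to 208 and 14 under TMM and to 30 and 62 in DESeq2, so single values have no fixed zero. Without course 1 they were 23 and 9, and without course 2 they were 38 and 10. miR-154-3p and miR-376b-3p of the Dlk1-Dio3 cluster, miR-335-3p and miR-7a-5p had the largest positive values among those well counted in both lines, at 2.57, 2.48, 2.03 and 1.98. miR-125b-5p was at -1.89 and, under TMM scaling, at -1.19 with an adjusted p of 0.115. Dose, line and depth cannot be told apart in this comparison.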

How the data were processed

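Small RNA was sequenced from EU pulldowns and Input RNA, and the authors deposited raw counts per mature miRNA, with no normalization per the file headers. The submitters' processing notes name cutadapt, STAR 2.4 and HTSeq 0.9.1 with mm10/GRCm38. Whether random adapter bases were used to collapse duplicates is not given in the sources used here, so counts are reads and intervals cover no duplication. Near-identical family members and rows that join arms are uncertain, since how reads were split is not recorded. Of the columns of per-sample values, 0 were left out.

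Counts were fitted with edgeR 4.0.16 (limma 3.58.1, R 4.3.3), with the sum of mouse miRNA counts as library size, its default expression filter with a minimum count of 10, robust quasi-likelihood tests, fraction as the effect and the pair as a block, and Benjamini-Hochberg adjustment over all miRNAs tested. DESeq2 1.42.0 and TMM scaling were alternatives. Single-library log2 values used a prior count of 0.5. Pairing comes from the course number and time in the labels, and deviations of paired EU and Input libraries from their fraction means correlated by 0.35 to 0.59. The 3 times of a course stand in for replicates, so the p-values measure the spread between these samples. A fit of counts summed per course, with the course as the replicate, was an alternative. Among the named miRNAs, it lost the calls of miR-21a-5p, miR-24-3p, miR-199ab-3p, miR-143-3p, miR-16-5p, miR-26a-5p, miR-26b-5p, miR-130a-3p, miR-92a-3p and miR-19b-3p. Also lost were those of miR-106b-3p, miR-130b-5p, miR-181a-5p, miR-199b-5p, miR-1a-3p, miR-320-3p and miR-9-5p. Their edgeR adjusted p values were 0.0555 to 0.338. The code was tested on simulated data. Replicate libraries differed by more than counting error (chi-square per degree of freedom of 34.6 or more).

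The members, lists and tests were chosen with earlier results of these data known. miRNAs were named by a rule: the 10 highest and 10 lowest past the threshold with 1 sign in 6 pairs and at least 100 CPM, the 10 most abundant in Input, the extremes of each of 29 lists, the 5 steepest slopes and the 5 largest differences each way between lines, and the other arms of the first 2 groups. miR-503-5p and others outside these were named after their values were seen.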

Additional observations from a re-analysis of the deposited data

Results flagged for a closer look

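The EU-minus-Input difference itself differed between cell lines, by edgeR's test of the interaction at an adjusted p under 0.05, for the miRNAs below, the 5 with the highest and the 5 with the lowest fitted values in each comparison among those with a mean of at least 100 CPM over the 36 libraries. Values are log2, DMEF minus the other line. Against CIMEF, those with counts enough in DMEF to be tested there were miR-26a-2-3p at -2.99, let-7f-2-3p at -2.15, miR-455-3p.1 at 2.09, miR-130b-5p at 1.91, miR-574-5p at 1.85, miR-130b-3p at 1.56 and miR-301b-3p at 1.52. miR-455-3p.1 had 30 EU counts in DMEF and was at -1.41 without course 2 (edgeR adjusted p = 0.412). The call was lost without course 1 for let-7f-2-3p and miR-301b-3p (edgeR adjusted p = 0.158 and 0.283). Without course 2 it was lost for miR-130b-5p and miR-130b-3p (edgeR adjusted p = 0.103 and 0.0508). All of these also lost it with no replicate block. miR-301b-3p had 2 counts in the unlabelled EU library, or 29.1% of its labelled yield.

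Against ESC, those tested in DMEF were miR-100-5p at -5.31, miR-667-3p at -2.50, miR-125b-5p at -1.89, miR-154-3p at 2.57, miR-376b-3p at 2.48, miR-335-3p at 2.03 and miR-7a-5p at 1.98. miR-100-5p was at 4.13 without course 2 (edgeR adjusted p = 0.960), the opposite direction, and miR-667-3p had 5 EU counts in DMEF. With no replicate block, miR-154-3p, miR-376b-3p and miR-667-3p lost the call (edgeR adjusted p = 0.303, 0.360 and 0.380).

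The others passed the filter through another line and were not tested within DMEF, so their fitted values depend on the prior count and show no size. These were miR-499-5p, with 0 EU counts in DMEF, at -6.22 against CIMEF and -6.59 against ESC, miR-142a-3p.2, with 2, at -2.88 and -2.49, miR-142a-3p.1, with 5, at -2.74 against CIMEF, and miR-106a-5p, with 4 in EU and 4 in Input, at 3.78 against ESC. No pair of libraries stood apart from the other 5 for any of the 30 miRNAs checked, which are the 10 highest, 10 lowest and 10 most abundant.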

How the results depend on the processing

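The limits are 2 courses, 3 times in place of replicates, 1 background library of few counts, and EU libraries shallower than Input, which limits miRNAs of low EU counts. Counts are given as higher and lower. For EU against Input, 137 and 124, a test against a 2-fold difference gave 67 and 49, the 4 h pairs alone gave 75 lower, and a mean of at least 100 CPM left 80 lower of 251 tested, and the other settings stayed within 1.5 times, with 123 to 155 and 107 to 117 when a course was left out. Among single named miRNAs of this comparison, 1173 of 1315 values kept their side of the threshold, 127 lost it, 15 gained it and 0 reversed. Values between lines held less often. For DMEF minus CIMEF 38 of 60 kept their side, 20 lost it and 2 reversed, and for DMEF minus ESC 45 of 60 kept it, 14 lost it and 1 reversed. The slope, 0 and 27, had 1 rising in DESeq2 and 7 falling with no replicate block, and 1 to 13 rising and 37 to 46 falling when a course was left out. DMEF minus CIMEF, 30 and 62, gave 35 lower under TMM, 40 lower in DESeq2, 8 and 11 with no replicate block, and 14 to 59 lower when a course was left out. Without course 1 or 2, miR-142a-3p.1 ranged from -3.07 to 0.12 and miR-455-3p.1 from -1.41 to 3.45. DMEF minus ESC, 40 and 22, gave 208 and 14 under TMM, 62 lower in DESeq2, 15 and 14 with no replicate block, and 23 to 38 and 9 to 10 when a course was left out, where miR-100-5p ranged from -5.33 to 4.13. Early minus late, 57 and 13, gave 28 lower in DESeq2, 7 lower with no replicate block, and 14 to 45 and 4 to 16 when a course was left out. Dropping the block gave fewer calls in each of the 5 fits. Fewer libraries enter when a course is left out; for the other changes the cause was not tested. The early-against-late fit and a background limit by other standards were chosen after seeing the data.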

Other observations

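Other families held both directions of the EU-minus-Input difference (log2), beside 33.5% higher and 30.3% lower of all tested. In the family of miR-15, miR-16 and their relatives 4 of 9 were higher, all of them 3p passengers led by miR-16-1-3p at 3.24 and miR-15b-3p at 1.66, and 1 was lower, the guide miR-16-5p at -0.43. The call of miR-16-5p was lost with counts summed per course. The median of these 9 was 0.15. In the families of miR-130 and miR-148 6 of 13 were higher, all 5p arms and among them miR-301a-5p at 3.06 and miR-148a-5p at 2.58, and 3 were lower, all 3p arms, with miR-130b-3p at -1.32. Of 7 miR-181 arms 4 were higher and 2 lower. The guides miR-181b-5p and miR-181d-5p were higher, at 0.72 and 0.67, and miR-181a-5p and miR-181c-5p lower, at -0.57 and -0.56, although all 4 share the seed ACAUUCA. With counts summed per course, miR-181a-5p lost the call (edgeR adjusted p = 0.081).

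miR-221 and miR-222, made from a shared transcript, had guides on opposite sides, with miR-221-3p at 0.48 and miR-222-3p at -0.75, both past the test. The family of miR-34, known as targets of p53, had 4 of 7 higher and 1 lower, from miR-34a-3p at 1.47 to miR-34c-3p at -0.89. Among the repeats of the Sfmbt2 type 5 of 25 were higher and 6 lower, with miR-467a-3p highest at 1.56 and miR-466h-3p lowest on 4 EU counts, too few to give a size, and their near-identical copies leave the split of reads between rows uncertain. Their median was 0.05, and under TMM scaling it was -0.11.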
